A study of Mus musculus with 12 samples.

Results

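The 53 genes described here are interferon-stimulated antiviral effectors, genes whose products block or sense viruses, chosen by symbol and grouped here into 9 roles. All 53 were found among the 24445 genes of the deposited count tables, each read through its transcript with the highest total count. Ifi44l had 1 read in the 12 libraries and was not tested, and the other 52 passed the filter on low counts in both conditions. The cells were bone marrow-derived macrophages of C57BL/6 mice, cultured from femur and tibia marrow over 7 to 8 days with L929-conditioned medium, which supplies M-CSF. Marrow came from mice that were either wild type (WT) or knockout (KO) for the histone methyltransferase DOT1L in myeloid cells. The labels name Lyz2 beside the strain. They do not say whether WT mice carried a Cre transgene, which exons were deleted, how old the mice were or whether marrow was pooled. Cells of each genotype were left untreated or given lipopolysaccharide (LPS), a cell wall component of Escherichia coli, at 10 ng/mL for 3 hours. Each of the 4 groups had 3 libraries that the labels call biological replicates.

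In a macrophage, LPS is sensed by the receptor TLR4. Its adaptor TRIF leads to activation of the factor IRF3, which switches on the gene of interferon beta. The secreted interferon binds its receptor on the same and neighbouring cells, and the kinases JAK1 and TYK2 then activate STAT2. STAT2 and IRF9 take part in a complex that binds the interferon-stimulated response element in the promoters of antiviral genes. Resting cells hold low levels of the same transcripts, which tonic interferon signalling is known to maintain.

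The core letters of that response element were searched in the promoters, because they are what links these genes in textbook accounts. The motif searched was GAAANNGAAA, on either strand, in the 250 bases before to 50 bases after each gene's start in the RefSeq table of GRCm38.p6 (the assembly of mm10). Of the 53 genes, 42 had an entry. The letters were in 18 of these 42 promoters (42.9%) and in 1079 of the 27025 promoters of the table (3.99%). The letters of the gamma-activated site, TTCNNNGAA, which can overlap the first motif, were in 7 of the 42 (16.7%) and in 9.55% of the table. The next lines show the matches in 8 members that the results below return to, each read 5′ to 3′ along the gene's own strand, with the motif letters in capitals. Where matches overlap, the capitals run together.
Isg15: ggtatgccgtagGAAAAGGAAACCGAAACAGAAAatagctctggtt
Ifit1: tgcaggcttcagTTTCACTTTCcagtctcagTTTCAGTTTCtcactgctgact
Ifit3: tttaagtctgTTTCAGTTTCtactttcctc
Ifit3b: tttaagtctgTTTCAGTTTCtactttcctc
Oas1a: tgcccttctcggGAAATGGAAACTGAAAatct
Oas1g: tgcccttctcggGAAATGGAAACTGAAAat
Rsad2: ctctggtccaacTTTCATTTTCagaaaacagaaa
Bst2: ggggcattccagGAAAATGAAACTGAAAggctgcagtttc

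In GRCm38.p6 these stretches lie at chr4:156200863-156200908 (minus strand) for Isg15, chr19:34640773-34640825 (plus) for Ifit1, chr19:34583397-34583426 (plus) for Ifit3 and chr19:34607793-34607822 (plus) for Ifit3b. Those of Oas1a and Oas1g lie at chr5:120907526-120907557 and chr5:120887614-120887643, that of Rsad2 at chr12:26456551-26456584 and that of Bst2 at chr8:71537575-71537614, all on the minus strand. All 8 lie before the start that the promoter table gives, from position -164 (Ifit3b) to position -1 (Oas1a and Oas1g). The stretches of Ifit3 and Ifit3b and part of that of Oas1a fall within the gene's longest annotated RefSeq span, which begins further upstream. Of the 2 matches of Ifit3 and of Ifit3b, 1 is shown. The printed stretches of Ifit3 and Ifit3b are identical, and that of Oas1g is the first 30 bases of that of Oas1a, so these pairs are near copies in this region. Ifit3b and Oas1g also resemble Ifit3 and Oas1a in their transcripts, so reads could be split between the partners of a pair and their separate levels are uncertain. The same holds within the Ifi204 and Ifi205 family. A match of letters describes the window and shows no bound factor.

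Library totals over 1 transcript per gene ran from 8642581 to 13542953 counts, so that 3 counts, the floor used here, correspond to 0.222 to 0.347 CPM (a counts-per-million scale). WT replicate 1 had the lowest total in each condition, 8984829 counts untreated and 8642581 with LPS. With LPS every KO total (12749755 to 13542953) lay above every WT total (8642581 to 11905378), while untreated totals overlapped between genotypes. The part of these totals in the genotype differences was not tested. CPM below are scaled by TMM over all 12 libraries and can be compared between conditions. They cannot be compared between genes, since long transcripts gather more reads. Macrophage markers were present in all libraries, with a summed level of 4380 to 6920 CPM over 6 genes. Of 6 lymphocyte and NK cell markers, all stayed under 1 CPM. So did Siglech, Ly6d and Klk1 of 5 markers of plasmacytoid dendritic cells, a strong source of interferon. The other 2 were Ccr9, at 0.065 to 1.5 CPM, and Tcf4, at 81.6 to 123 CPM untreated and 309 to 415 CPM with LPS. Summed markers of monocytes stood at 20.2 to 59.4 CPM (5 genes) and those of neutrophils at 9.84 to 42.3 CPM (6 genes). None of the cell type markers that passed the filter was called between genotypes, but many were too low to be tested. No gene at all was called untreated, so the missing calls there do not show equal cell types. Replicate 2 of every group came from male cells, with Ddx3y at 94.2 to 106 CPM against 0 reads in the other libraries. Dot1l did not pass the test between genotypes (log2 fold change -0.15 ± 0.13, adjusted p = 0.902 untreated). Its reads cover the whole transcript, so with the deleted exons unknown they do not check the labels. Lyz2 was at 2615 to 3439 CPM in the KO libraries and at 5730 to 7977 CPM in the WT libraries.

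LPS against untreated cells was the first comparison. All 52 tested antiviral genes rose with LPS in WT cells and all 52 rose in KO cells, by a median of 12.6-fold and 11-fold (median log2 fold changes 3.66 and 3.46). Among all genes tested, 27.6% rose in WT and 30.3% in KO, and the medians were -0.05 and -0.02. The folds ran from 2.48 for Lgals3bp to 575 for Ifi205 in WT, and from 2.17 to 440 for the same genes in KO. In each genotype 8 members exceeded 100-fold and 5 stayed under 4-fold. Together the members held 0.301% to 0.492% of all counts in an untreated library and 6.23% to 6.87% in an LPS-treated one. The tests were edgeR's quasi-likelihood F test with Benjamini-Hochberg adjustment, and the largest adjusted p among the members was 4.92e-05 in WT and 5.89e-05 in KO. In the heat map of the members by library, every gene brightens from the untreated to the LPS-treated libraries.

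**Figure D1:**
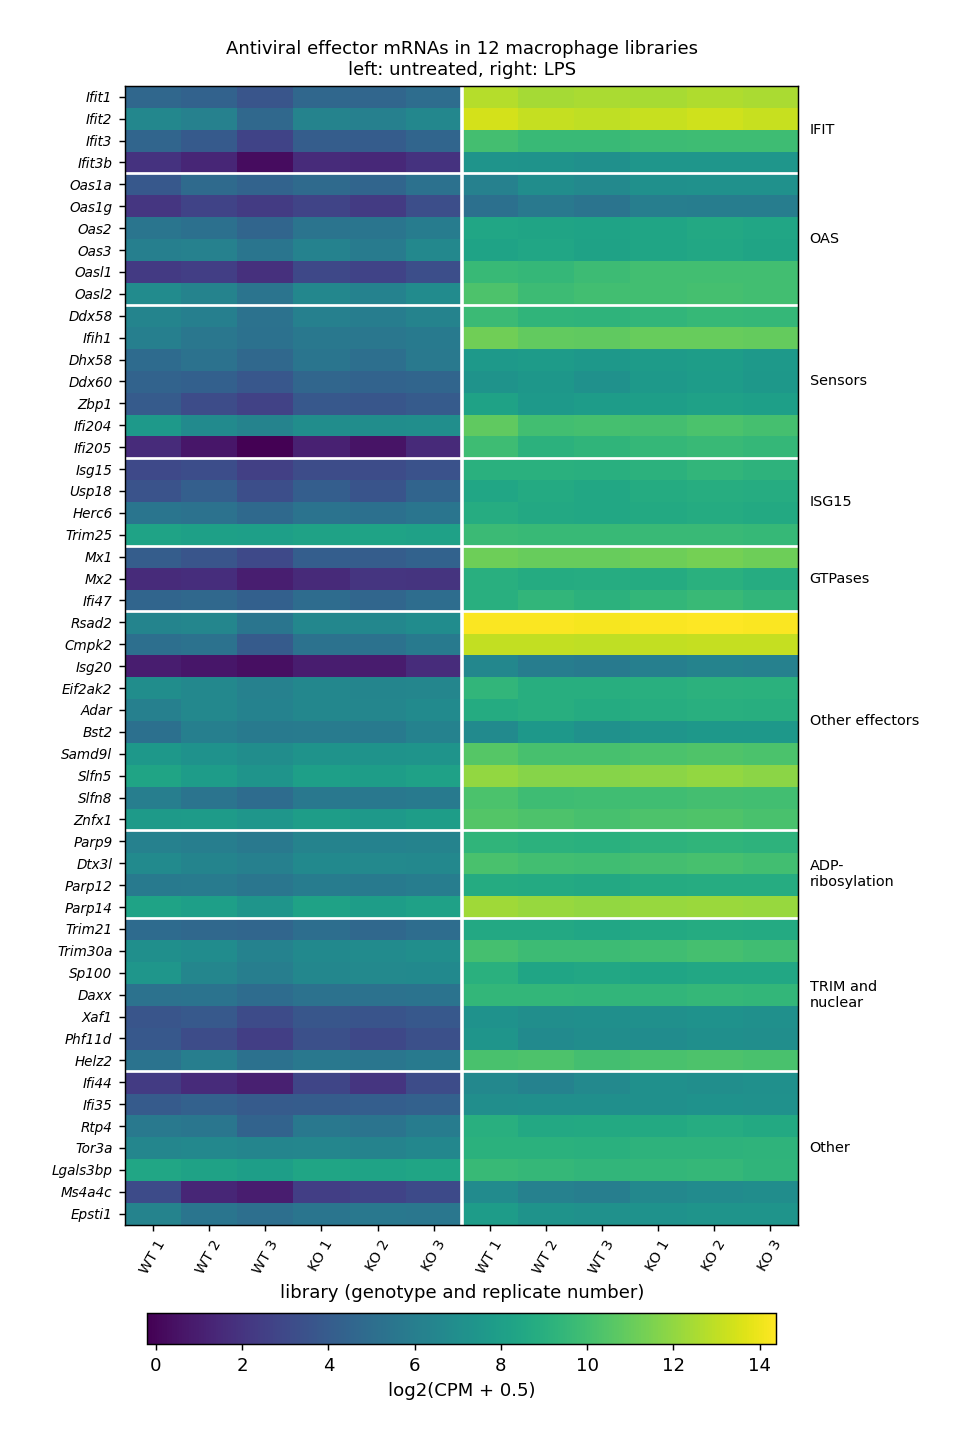
Levels of the 52 tested antiviral genes (rows, grouped by role) in the 12 libraries (columns), as log2(CPM + 0.5) on a colour scale. Every row is higher in the 6 LPS-treated libraries on the right, and the column of untreated WT replicate 3 is darker than its neighbours in most rows.

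The IFIT proteins, which bind viral RNA and hinder its translation, responded steeply, though the GTPases had a higher median fold and Ifi205 the largest of any member. The 4 IFIT genes lie within chr19:34550550-34650009 and rose by a median of 106-fold in WT and 86.8-fold in KO. Ifit2, the IFIT gene with the highest level per length, had 93.9, 72.4 and 25.9 CPM in untreated WT replicates 1, 2 and 3 and 78.5, 70.1 and 94.6 CPM in untreated KO. With LPS it reached 11103, 8869 and 8001 CPM in WT and 9349, 10150 and 9120 CPM in KO, a 146-fold and a 118-fold rise. The genotypes overlapped in both conditions, and WT replicate 3 was the lowest library in each. Ifit1, the member with the second largest fold in WT, had 25.1, 20.3 and 11.9 CPM in untreated WT and 24.9, 24.0 and 31.5 CPM in untreated KO. With LPS it stood at 6864, 5542 and 5841 CPM in WT and 5782, 6320 and 5855 CPM in KO, so that it rose 320-fold and 223-fold and all 6 treated libraries lay close together. Ifit1 and Ifit3b lie within the annotated span of Ifit1bl1, so reads of the genes cannot be told apart without a known strand setting.

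The OAS family makes a small nucleotide messenger that activates an RNA-cleaving enzyme, though not every protein of the family has that activity. All 6 genes rose, by 4.69-fold (Oas1a) to 190-fold (Oasl1) in WT and 4.41-fold (Oas3) to 132-fold (Oasl1) in KO. Oasl1, known for holding back translation of the factor IRF7, had 4.35, 5.13 and 3.10 CPM in untreated WT and 7.33, 6.11 and 9.55 CPM in untreated KO. LPS brought it to 776, 736 and 880 CPM in WT and 1013, 1016 and 1023 CPM in KO. In both conditions the 3 KO libraries lay above the 3 WT libraries. Oas1g had 3.77, 6.19 and 4.64 CPM in untreated WT and 6.28, 4.64 and 9.36 CPM in untreated KO. With LPS it had 35.2, 50.5 and 42.2 CPM in WT and 65.1, 63.2 and 62.2 CPM in KO, where the genotypes no longer overlapped. Its rise was 8.67-fold in WT and 9.33-fold in KO.

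Among the sensors of RNA and DNA are Ddx58 (RIG-I), Ifih1 and Dhx58, a trio of helicases that detect viral RNA, and the PYHIN genes Ifi204 and Ifi205. The 7 sensors rose by a median of 11.3-fold in WT and 10.1-fold in KO. Ifi205 was nearly silent in untreated cells, at 2.52, 1.12 and 0.369 CPM in WT and 1.68, 1.01 and 2.40 CPM in KO. With LPS it had 944, 578 and 654 CPM in WT and 733, 820 and 738 CPM in KO, the largest fold of the members in both genotypes, which rests on 5 to 37 untreated reads a library. Ifi204 started higher, at 210, 111 and 79.8 CPM in untreated WT and 122, 125 and 129 CPM in untreated KO. After LPS there were 1787, 1011 and 1099 CPM in WT and 1037, 1203 and 1080 CPM in KO. WT replicate 1 was the highest library for Ifi204 in both conditions, and the other libraries of a condition stood within a narrower band.

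ISG15 is a ubiquitin-like protein that is joined to other proteins with the ligases HERC6 and TRIM25 taking part, and USP18 removes it and also damps the interferon receptor. Isg15 had 7.74, 9.07 and 5.31 CPM in untreated WT and 8.70, 8.58 and 10.5 CPM in untreated KO. LPS raised it to 524, 540 and 513 CPM in WT and 588, 664 and 610 CPM in KO, a rise of 71.3-fold and 66.8-fold. Usp18 rose 29.1-fold and 26.6-fold, and Trim25, already high at rest, rose 2.86-fold and 2.76-fold. Of the 3 GTPases, Mx1 and Mx2 belong to a family whose functional proteins block viral nucleocapsids. Ifi47 belongs to the immunity-related GTPases. Mx1 had 16.7, 12.2 and 7.45 CPM in untreated WT and 17.2, 16.9 and 20.2 CPM in untreated KO. In treated cells it had 2328, 2069 and 2039 CPM in WT and 2263, 2620 and 2302 CPM in KO, a rise of 179-fold and 132-fold. Mx1 and Mx2 are counted here on transcript models that RefSeq lists as noncoding, and so is Oas1g, so these levels say nothing of their proteins.

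Rsad2, which encodes viperin, an enzyme that makes a chain-terminating nucleotide, was the most abundant member per length with LPS. Its authors' RPKM (reads per kilobase of transcript, scaled to library size) averaged 3753 in WT and 3988 in KO, and the gene alone held 1.54% to 1.73% of all counts. Next came Cmpk2, its chromosomal neighbour and a nucleotide kinase (1868 and 2009 RPKM), Ifit2 (1689 and 1778) and Ifit1 (1654 and 1671). In untreated cells the order per length differed, with Lgals3bp (144 RPKM in WT and 165 in KO) and Bst2 (74.3 and 92.6) at the top and Rsad2 at 20.2 in WT. RPKM of the 2 conditions were normalised separately by the authors, so they serve to order genes within a condition. On the common CPM scale Rsad2 had 81.7, 91.3 and 44.6 in untreated WT and 94.7, 92.5 and 120 in untreated KO. LPS brought Rsad2 to 19979, 20513 and 18674 CPM in WT and 19818, 21447 and 20191 CPM in KO, a 272-fold and a 200-fold rise. The untreated genotypes did not overlap and the LPS-treated ones did.

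Bst2, or tetherin, which holds budding virions on the cell surface, was among the weakest responders. It had 35.3, 67.0 and 56.7 CPM in untreated WT and 59.0, 54.9 and 76.2 CPM in untreated KO. Treated libraries had 111, 188 and 146 CPM in WT and 172, 187 and 187 CPM in KO, a rise of 2.80-fold and 2.87-fold. WT replicate 1 was the lowest of the libraries in each condition. Of the other effectors in this role, the kinase gene Eif2ak2 (PKR) and the editing enzyme gene Adar rose 5.78-fold and 5.52-fold in WT. The exonuclease gene Isg20 rose 62.1-fold in WT and 40.2-fold in KO.

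The 4 genes of ADP-ribosylation include Parp9 and Dtx3l, which act as a pair and overlap by 558 bases at their ends, so reads there could count for either. Their folds ran from 7.70 to 18.6 in WT. Parp14, the largest of these enzymes and the most abundant of the 4 per length, had 308, 260 and 170 CPM in untreated WT and 297, 242 and 279 CPM in untreated KO. In treated cells Parp14 had 5052, 4500 and 4174 CPM in WT and 4470, 4640 and 4416 CPM in KO. In both conditions the WT libraries spanned the KO libraries. Trim30a stood for the TRIM and nuclear body genes, with 132, 117 and 76.2 CPM in untreated WT and 106, 114 and 127 CPM in untreated KO. After LPS Trim30a had 1095, 897 and 893 CPM in WT and 968, 1070 and 975 CPM in KO, an 8.88-fold and an 8.67-fold rise. Sp100, a component of nuclear bodies, rose 3.78-fold and 3.55-fold.

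The remaining members have less settled roles. Lgals3bp, a secreted glycoprotein, had the smallest fold and the highest resting level per length. It had 350, 292 and 248 CPM in untreated WT and 329, 307 and 330 CPM in untreated KO. LPS brought it to 800, 720 and 684 CPM in WT and 703, 740 and 652 CPM in KO. Epsti1 rose 3.41-fold in WT and 3.45-fold in KO. The 18 members whose promoter held the response element letters had a median WT fold of 14.7 (2.80 to 575), and the 23 tested members whose window did not had a median of 12.0 (2.48 to 281). Over all tested genes the medians were 1.22 for 386 genes with the letters and 0.958 for 9229 without them.

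**Figure D2:**
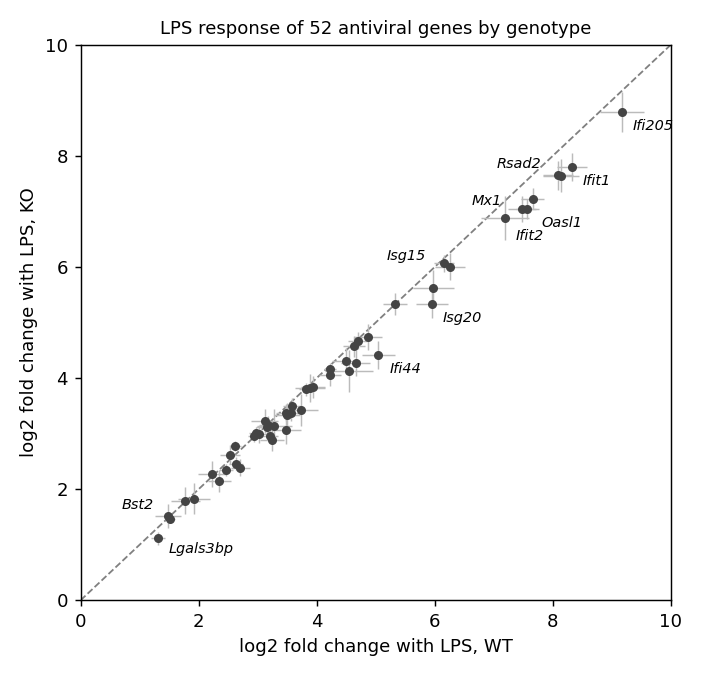
LPS response of each of the 52 tested members in WT (horizontal axis) and KO (vertical axis), as log2 fold change with its standard error (grey bars). The dashed line marks equal responses, and 43 of the 52 points lie below it, 28 of these by less than the standard error of the difference.

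The genotype by LPS interaction asked whether that response differed between genotypes. The LPS fold was smaller in KO for 43 of the 52 members, with a median difference of -0.15 on the log2 scale against 0.02 over all genes, of which 54.7% had the larger change in KO. None of the members was called in edgeR, nor was any of the 11984 genes (0.0%). At an unadjusted p under 0.05 there was 1 member (Oasl1, -0.52 ± 0.23) where 2.4% of all genes reached it. That fit left out the pairing of untreated and LPS-treated libraries by replicate number. With the number as a block, 3 members and 904 of the 11984 genes reached it, and 0 genes were called. DESeq2 called 0 genes as well. The interaction shares its untreated libraries with the untreated genotype comparison, and the tally turned on 1 of them. Without untreated WT replicate 3, 23 of 52 members had the smaller change in KO and the median was 0.02. Without untreated WT replicate 1 the median was -0.40.

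KO was then compared with WT in untreated cells. Of the 52 members, 46 were higher in KO and 6 were lower, with a median log2 fold change of 0.29 where all 11622 tested genes had a median of 0.00 and 49.0% were higher. None of the members was called by edgeR's quasi-likelihood test, nor was any other gene (0.0%), and 6 members had an unadjusted p under 0.05 (7.24% of all genes did). The smallest adjusted p of a member was 0.359, that of Oasl1. DESeq2 also called 0 of the members. The KO libraries all lay above the WT libraries for 5 of 52 members (Oasl1, Mx1, Rsad2, Cmpk2 and Parp9), where 6.76% of all genes showed this, and all lay below for 0 of 52 (8.48% of all genes). In 5 of the 9 roles every member was higher, without a call: all 4 IFIT genes, all 6 OAS genes, all 3 GTPases, all 4 genes of the ISG15 system and all 4 of ADP-ribosylation.

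A single library carried most of that difference. The mean log2 CPM of the 52 members was 5.188, 5.007 and 4.410 in untreated WT replicates 1, 2 and 3 (4.868 ± 0.407, SD, n = 3) and 5.165, 5.036 and 5.385 in KO (5.195 ± 0.176, SD, n = 3). WT replicate 3 lay below the other 5 libraries, which overlapped between genotypes. It was the lowest of the 6 untreated libraries for 46 of 52 members, while 14.7% of all tested genes were lowest there. Against the mean of the other WT libraries it was lower for 50 of 52 members, by a median of 0.638 on the log2 scale (range -1.791 to 0.22). Without it, 32 members were higher in KO and 20 lower, and the median was 0.06. Without KO replicate 3, the highest untreated library for 24 members, the median was 0.16. In the female libraries alone, which include WT replicate 3, 47 of 52 members were higher in KO and the median was 0.47.

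**Figure D3:**
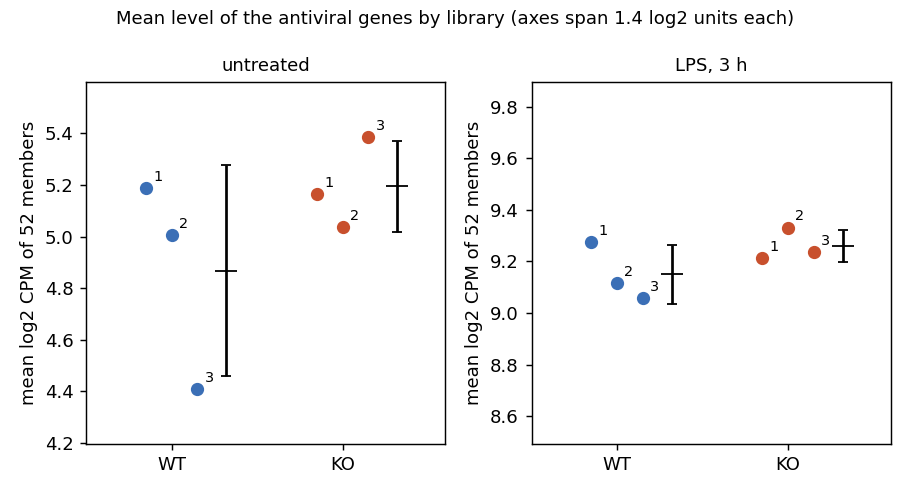
Mean log2 CPM of the 52 tested members in each library (numbered points), with the mean and SD of each group of 3 beside them. Untreated WT replicate 3, at 4.410, lies apart from the other untreated libraries (5.007 to 5.385), and the LPS-treated libraries lie between 9.057 and 9.331.

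WT replicate 1 pulled the other way. Without it 51 of the 52 members were higher in untreated KO, with a median of 0.41, and 9 were called higher in a fit that called 3.7% of all genes higher (749 genes in either direction). These 9, named because the fit called them, were Ms4a4c (1.89), Zbp1 (0.94), Oasl1 (0.92), Mx1 (0.90), Ddx60 (0.54), Slfn8 (0.50), Parp9 (0.48), Dtx3l (0.41) and Lgals3bp (0.28), as log2 fold changes. WT replicate 1 was the highest untreated library for 19 members (32.1% of all genes were highest there) and the lowest for 5 (33.9% of all genes). It was highest in both conditions for 17 members, among them Sp100, Epsti1, Ifi204 and Parp14, where 20.0% of all genes were. Oas1a, Oas1g, Bst2 and Ifi35 were lowest there in both, where 19.9% of all genes were. The library stood at an extreme for many genes of the table.

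Sp100 shows the first kind, with 174, 88.5 and 65.3 CPM in untreated WT and 92.6, 102 and 107 CPM in KO. With LPS it had 532, 328 and 377 CPM in WT and 332, 370 and 367 CPM in KO. The WT libraries spanned the KO libraries each time, and the genotype difference was -0.10 ± 0.31 untreated and -0.22 ± 0.15 with LPS. Epsti1 had 79.2, 44.0 and 34.9 CPM in untreated WT and 43.1, 48.5 and 47.1 CPM in untreated KO. With LPS it had 235, 155 and 147 CPM in WT and 151, 163 and 165 CPM in KO, again with replicate 1 on its own. These were the 2 members with the most negative untreated difference, and neither passed (adjusted p = 0.981 for Sp100 and 0.958 for Epsti1). Both differences were positive without WT replicate 1 (0.41 and 0.25).

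Ifi44 had the largest untreated difference, 1.20 ± 0.40 (adjusted p = 0.526). It had 4.45, 2.53 and 1.62 CPM in untreated WT and 6.59, 3.71 and 8.51 CPM in untreated KO, and KO replicate 2 lay below WT replicate 1. Oasl1 followed at 0.90 ± 0.24, with no overlap between genotypes. The spread among untreated WT libraries was wide for the members, whose median coefficient of variation was 29.7% in WT and 11% in KO (14.4% and 7.46% over all genes). Some cell type markers also separated the untreated genotypes, without a call. For 4 of the 6 macrophage markers every KO library lay above every WT library, where 6.76% of all genes showed this. These were Adgre1 (711 to 865 CPM in WT and 889 to 970 in KO), Csf1r (970 to 1120 and 1160 to 1290), Fcgr1 (87.9 to 110 and 125 to 133) and Itgam (838 to 920 and 955 to 1030). The other 2, Cd68 and Mertk, overlapped and were lower in KO (log2 fold changes -0.34 ± 0.21 and -0.06 ± 0.23). The summed level of 5 markers of conventional dendritic cells was 0.581 to 0.984 CPM in WT and 1.43 to 1.88 CPM in KO. Each was under 1 CPM in every untreated library (Flt3 and Clec9a with LPS too), and none passed the filter to be tested untreated. Xcr1 (0 to 0.147 CPM in WT and 0.232 to 0.373 in KO) and Cd209a (0 to 0.0968 and 0.124 to 0.232) did not overlap, at levels near or below the floor of 3 counts. The part of these markers in the antiviral values was not tested. In bulk RNA, a change in the number of cells of a type and a change in RNA per cell cannot be told apart.

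**Figure D4:**
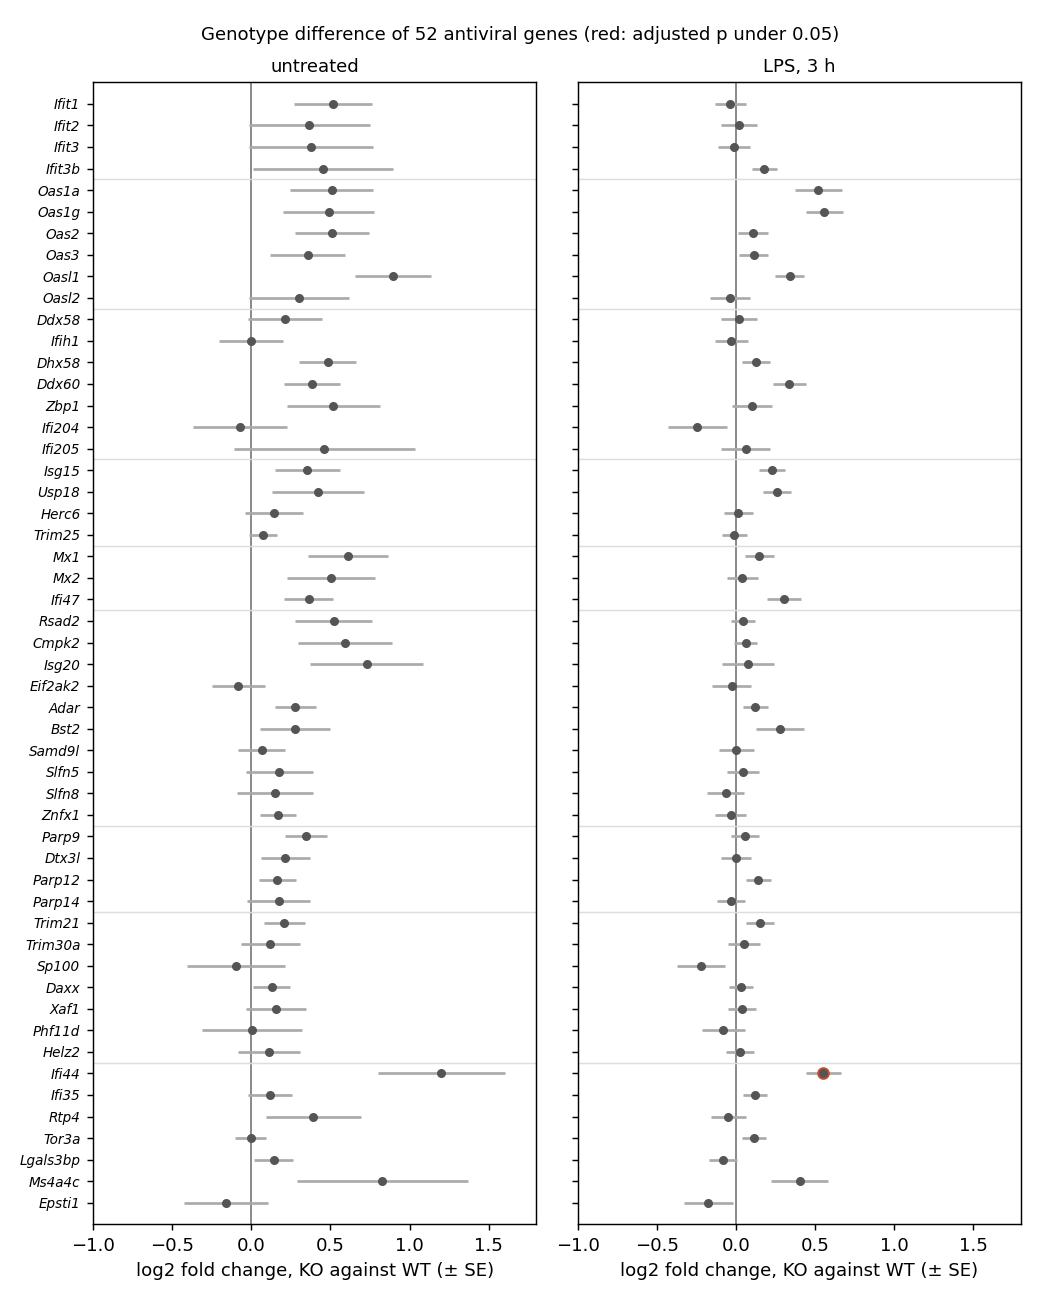
Difference between KO and WT of each tested member, as log2 fold change with its standard error (bars), in untreated cells (left) and with LPS (right). On the left 46 of 52 points lie above 0 with wide errors, and on the right the points gather near 0, with Ifi44 (red rim) the only one past the threshold.

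With LPS the balance of directions was less one-sided. Of 52, 37 were higher in KO and 15 lower, with a median log2 fold change of 0.05 (all 11264 genes: -0.01, and 48.4% higher). The mean log2 CPM over the members was 9.276, 9.116 and 9.057 in WT (9.150 ± 0.113, SD, n = 3) and 9.213, 9.331 and 9.235 in KO (9.260 ± 0.063, SD, n = 3), so the genotypes overlapped. Called higher was 1 member, Ifi44, where 1.0% of all genes were called higher (0.124% lower), and 10 members had an unadjusted p under 0.05 (13.8% of all genes). A count of 1 in 52 is near the share over all genes. The KO libraries all lay above the WT libraries for 14 of 52 members (11.1% of all genes) and below for 0 of 52 (9.17% of all genes). These 14 were Ifit3b, Oas1a, Oas1g, Oasl1, Ddx60, Isg15, Usp18, Ifi47, Cmpk2, Parp12, Trim21, Ifi44, Ifi35 and Tor3a.

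Ifi44, which encodes a cytoplasmic protein induced by interferon, lies at chr3:151730922-151749910 in mm10, and its promoter window did not hold the response element letters. It had 96.9, 77.2 and 101 CPM in LPS-treated WT and 141, 126 and 138 CPM in LPS-treated KO. Every KO library was above every WT library. The difference was 0.55 ± 0.11 on the log2 scale and passed narrowly (adjusted p = 0.0471). The call held without WT replicate 1 (adjusted p = 0.00517) and was lost without any one of the other 5 libraries, where the change ran from 0.43 to 0.63 and the adjusted p from 0.0639 to 0.224. It was also lost in a fit on all 12 libraries (adjusted p = 0.267), with limma on RPKM (adjusted p = 0.0687) and with the replicate number as a block (adjusted p = 0.0578). Within the OAS family, Oas1g differed by 0.56 ± 0.12 (adjusted p = 0.0504), Oas1a by 0.52 ± 0.15 (adjusted p = 0.139) and Oasl1 by 0.34 ± 0.09 (adjusted p = 0.113). These 3 missed the threshold, Oas1g by the least. DESeq2 called all of them together with Ifi44, in a fit that called 175 of 15876 genes higher. Oas2, Oas3 and Oasl2 differed by 0.11, 0.11 and -0.04. The most negative differences were those of Ifi204 (-0.24 ± 0.19) and Sp100, and without WT replicate 1 they were 0.06 and 0.01.

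**Figure D5:**
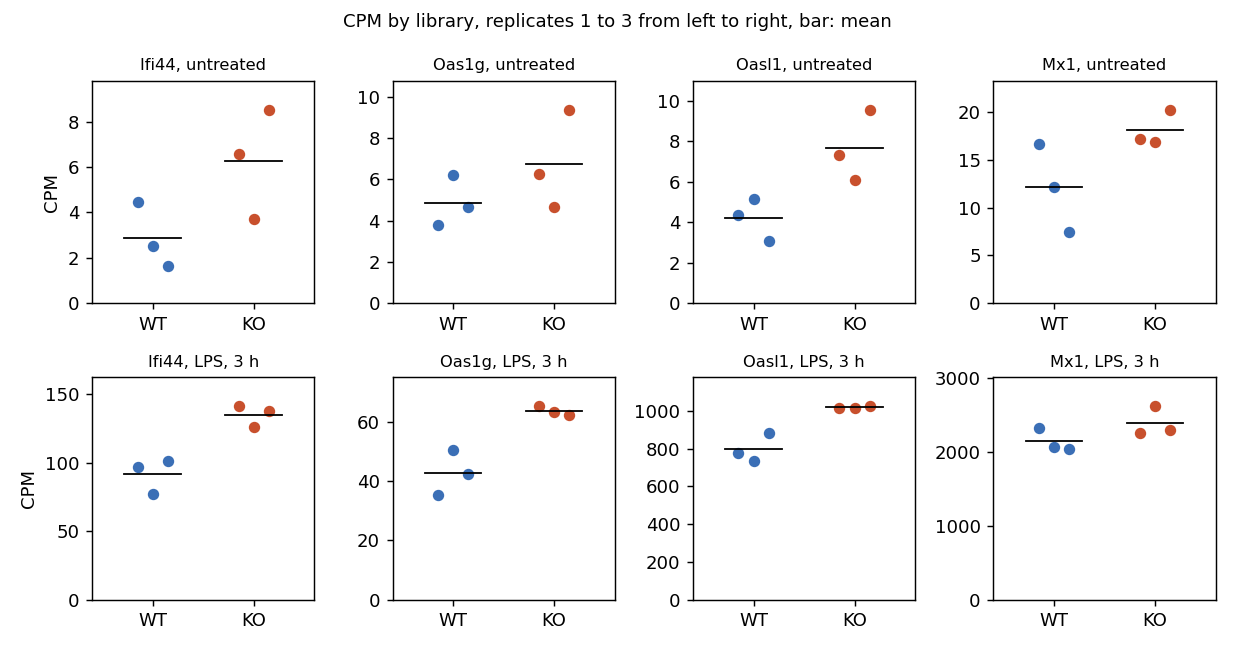
CPM of 4 members by library (points, replicates 1 to 3 from left to right within each genotype, bar at the mean, axes from 0), untreated above and with LPS below. With LPS the KO points of Ifi44, Oas1g and Oasl1 lie above all WT points, while those of Mx1 overlap with WT.

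None of the 8 members with an LPS response over 100-fold in WT passed the test between the LPS-treated genotypes (adjusted p of 0.113 to 0.95). Oasl1, above, had the largest difference of them and Mx1 the next, 0.15 ± 0.09. The other 6 lay between -0.03 ± 0.10 (Ifit1) and 0.06 ± 0.16 (Ifi205), with Rsad2 at 0.05 ± 0.07. The IFIT genes had a median of 0.01 and the ADP-ribosylation genes of 0.03. The OAS family had the largest median of a role, 0.23. The tally depended on single libraries: 51 members were higher without WT replicate 1 (7 called higher, against 3.13% of all genes), 26 without WT replicate 2 (Oas1a and Oas1g called, against 0.846% of all genes), 28 without WT replicate 3 and 28 without KO replicate 2. In the LPS-treated libraries of replicates 1 and 3 alone, all female, 25 of 52 were higher in KO than in WT and the median was -0.04. The summed conventional dendritic cell markers were at 2.70 to 3.23 CPM in WT and 3.89 to 4.71 CPM in KO. Of the 5 only Xcr1 separated the genotypes (0.749 to 1.71 and 2.58 to 2.73 CPM), and Flt3, Clec9a and Cd209a were lower in KO on average. Stromal markers, mostly Pdgfrb, had 1.82 to 4.05 and 4.34 to 7.71 CPM. In treated cells every KO library lay above every WT library for Csf1r (891 to 1110 CPM in WT and 1130 to 1260 in KO). Fcgr1 (388 to 433 and 443 to 563) and Itgam (876 to 1040 and 1050 to 1090) separated likewise. So did Plac8 (1.2 to 1.52 and 2.21 to 2.35), alone of the 5 monocyte markers. Cd68 was lower in every KO library (1830 to 2970 and 1590 to 1820), and Adgre1 and Mertk overlapped. Over all genes 11.1% separated upwards and 9.17% downwards. The part of these markers in the antiviral values was not tested.

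The genes that induce and relay interferon were read from a list of 27, of which 25 were tested untreated and 27 with LPS. Between genotypes 0 were called in either condition (0.0% of all genes untreated, and 1.0% higher and 0.124% lower with LPS). An unadjusted p under 0.05 was reached by 4 of 25 untreated (7.24% of all genes) and 3 of 27 with LPS (13.8%). The smallest adjusted p was that of Sting1 in both conditions (0.326 untreated and 0.0504 with LPS). Its KO libraries all lay above its WT libraries in each. Untreated, 20 of 25 were higher in KO, and with LPS 16 of 27 were. With LPS, 22 rose and 2 fell in each genotype, the 2 being the receptor gene Tlr4 (0.566-fold in WT and 0.556-fold in KO) and the adaptor gene Mavs (0.623-fold and 0.518-fold), named here because the count is small. Over all genes 29.8% fell in WT and 30.9% in KO. Ifnb1, interferon beta itself, had 0 reads in the 6 untreated libraries. With LPS it had 6.59, 12.8 and 10.4 CPM in WT and 7.34, 6.19 and 5.73 CPM in KO, and its 262 and 211 pooled reads were at least 90.0-fold and 63.1-fold above a floor of 3 counts over the group, on CPM of the pooled reads without TMM scaling. Its genotype difference with LPS was -0.66 ± 0.22 (adjusted p = 0.213), and 1 KO library lay above the lowest WT library.

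Irf7, the factor that amplifies interferon production, had 26.2, 27.8 and 16.6 CPM in untreated WT and 37.3, 26.7 and 46.1 CPM in untreated KO. It rose 23-fold in WT and 15.9-fold in KO, and its untreated difference of 0.67 ± 0.24 did not pass (adjusted p = 0.583). Of the genes for the complex that binds the response element, Stat2 rose 7.80-fold in WT and 6.85-fold in KO, and Irf9 rose 2.94-fold and 2.85-fold.

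Among genes outside the 53, those whose level followed the members' mean most closely over the 6 untreated libraries were Stat2 (Pearson r = 0.995), Ccdc69 (0.994), Irf9 (0.99), Trim30d (0.983) and Slfn2 (0.982). These points share their libraries and scaling. The genes were picked for this correlation, so a low WT replicate 3 was largely set by the choice. It was the lowest library for each of them. Stat2 had 131, 118 and 81.5 CPM in untreated WT and 130, 115 and 142 CPM in untreated KO. Irf9 had 52.9, 49.8 and 36.6 CPM in WT and 50.6, 47.8 and 56.8 CPM in KO. With LPS the gap of WT replicate 3 to the other WT libraries narrowed to a median of -0.148 over the members, with 46 of 52 lower there, and the members' median coefficient of variation was 11.5% in WT and 5.27% in KO.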

How the data were processed

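Messenger RNA of 12 macrophage libraries was sequenced single-end at 50 bp from 700 ng of RNA, per the labels' protocols. The deposited counts are whole reads per RefSeq transcript, not normalised. The authors' RPKM divide them by transcript length and library size, in a separate table for each condition. Per the submitters' processing notes, STAR 2.5.2b and SAMtools 1.3.1 were used with mm10. How reads were counted, with or without strand, and against which annotation release is not given in the sources used here.

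Of 35745 transcripts, 35440 were named from a RefSeq table and 188 from GENCODE. The other 117, with 0.259% to 0.738% of a library's counts, were left out. Each gene was read through its transcript with the highest total count, since reads shared by isoforms are counted in each. Floors reflect counting error alone.

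Genotype tests used the 6 libraries of a condition, and the LPS and interaction tests all 12 as 4 groups. In R 4.3.3, edgeR 4.0.16 filtered genes with filterByExpr, applied TMM factors and ran the robust quasi-likelihood F test. Its p-values were adjusted by Benjamini-Hochberg over every gene tested and called under 0.05. Adjusted p-values come from it where no tool is given. DESeq2 1.42.0 and limma 3.58.1 served as alternatives. Errors of log2 fold changes are standard errors, the change over the square root of F. With 3 libraries against 3, an exact permutation test cannot go below a two-sided p of 0.1, so none was used. P-values measure the spread between these libraries. The scripts were tested on simulated data.

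The members and lists were chosen with earlier results of these data known. Values by library are given for the member with the highest level per length in each role, for members called between genotypes, for the 2 largest and 2 smallest WT LPS changes, and for the 2 most positive and 2 most negative genotype differences at a mean log2 CPM (prior count 2) of at least 2. Ifnb1, Irf7, Stat2 and Irf9 were named by default, and 1 further gene of that list is not reported here. Other members are named with single values.

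Replicate numbers paired untreated with LPS-treated libraries: deviations from group means correlated at 0.567, 0.559 and 0.298 in WT and 0.251, 0.454 and 0.197 in KO for replicates 1, 2 and 3. With the number as a block, no call of a member in the LPS comparisons or the interaction changed. Alternatives included other scaling, filters, DESeq2, limma on log2(RPKM + 1), the longest transcript and leaving out each library. Fits without replicate 2 (the female libraries) and without WT replicate 1 in both conditions were added after seeing the data.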

Additional observations from a re-analysis of the deposited data

How the results depend on the processing

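The LPS calls of all 52 members, in both genotypes, held under every alternative run, with median log2 fold changes of 3.43 to 3.85 in WT and 3.38 to 3.56 in KO when 1 library was left out. The untreated genotype comparison called 0 genes, and 9 without a filter on low counts, 40 with DESeq2 and 27 when fitted on 12 libraries, none of them members. Leaving out 1 library gave 0 to 749 genes, 0 to 9 members called, 32 to 51 members higher and a median of 0.06 to 0.41. The female libraries gave 0 genes called, 47 members higher and a median of 0.47. With LPS, 127 genes were called, and 276 without a filter, 237 with DESeq2 and 17 in the female libraries (0 members). Without a filter 2 of 52 members were called higher, where 212 of 15876 genes were. With DESeq2 4 of 52 members were called higher, where 175 of 15876 genes were. Leaving out 1 library gave 17 to 545 genes, 0 to 7 members called, 26 to 51 higher and a median of 0.00 to 0.13. The call of Ifi44 was also lost in the fit on 12 libraries (adjusted p = 0.267) and with limma on RPKM (adjusted p = 0.0687), each with 0 members called.

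For the genotype comparisons the replicate numbers matched the sex of the samples but otherwise paired them at most weakly. Same-numbered deviations correlated at 0.055, 0.18 and 0.264 untreated and at -0.029, 0.194 and 0.116 with LPS. Differently numbered ones ran from -0.313 to 0.142 untreated and from -0.225 to 0.163 with LPS. With a replicate block, 47 genes and 0 members were called with LPS (Ifi44 adjusted p = 0.0578), and 0 genes untreated. In the interaction, 9 members had the larger LPS change in KO, 2 did in the female libraries, and 3 to 29 when 1 library was left out, with medians of -0.40 to 0.02 (0.0151 without untreated WT replicate 3). Without WT replicate 1 of both conditions 24 genes were called there, 0 of them members. The cause of these shifts was not tested. A member such as Ifi205, near 1 CPM at rest, is limited by depth.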
